A study of Mus musculus with 2 samples.

Results

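The fibrillins and their associated proteins were followed here in single cells of the mouse mitral valve as 5 genes, Fbn1, Fbn2, Mfap2, Mfap4 and Mfap5, of the 32285 genes counted. The genes were chosen by name, and all 5 were present in the count files under 1 identifier each. The valves, with both leaflets, came from mice of the C57BL/6J strain at 1 month of age. One library held cells pooled from 3 mice heterozygous for the Fbn1 C1039G allele (Fbn1 C1039G/+), and the other held cells pooled from 5 wild type mice with the genotype Fbn1 +/+. Each genotype is therefore 1 library with no replicate, no test was made, and no value can be given to a single animal. The intervals below are 95% intervals that cover counting error only, and a difference between libraries cannot be told apart from one between animals or preparations.

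Fibrillins are large secreted glycoproteins that join end to end into microfibrils, which stand alone in some tissues and form the scaffold of elastic fibers in others. Microfibrils also hold latent forms of transforming growth factor beta, through the latent TGF-beta binding proteins, and bone morphogenetic proteins in the matrix. Mutations in human FBN1 cause Marfan syndrome, in which the mitral valve can become thickened and prolapse. Fbn1 encodes fibrillin-1, the main fibrillin after birth, and Fbn2 encodes fibrillin-2, which is best known from development. Mfap2 and Mfap5 encode the microfibril-associated glycoproteins MAGP-1 and MAGP-2, small proteins that bind fibrillins. Mfap4 encodes a fibrinogen-related extracellular protein found on elastic fibers.

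Transcripts were counted by unique molecular identifiers (UMIs), read from the 3′ end of each transcript, so that a level does not scale with transcript length and the C1039G allele is not told apart from the wild type allele. The Fbn1 level is thus no check of the genotype. On mm10 the genes lie on different chromosomes, Fbn1 at chr2:125300594-125507993 and Fbn2 at chr18:58008623-58210487 on the minus strand, and Mfap2 at chr4:141010418-141015984, Mfap4 at chr11:61485431-61488900 and Mfap5 at chr6:122505845-122529290 on the plus strand.

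The Fbn1 C1039G/+ library held 9744 barcodes and 103663375 UMIs, and the wild type library held 9509 barcodes and 100969482 UMIs. After removal of barcodes with fewer than 1000 UMIs or more than 20% mitochondrial UMIs, 9540 Fbn1 C1039G/+ and 9395 wild type cells were left, with medians of 9778 and 9827 UMIs. Cells were called interstitial, the fibroblast-like cells of the valve, when Dcn, Col1a1, Col1a2 and Col3a1 made up at least 1% of their UMIs. These were 7768 Fbn1 C1039G/+ cells (81.4%) and 7557 wild type cells (80.4%). Below 1%, cells with at least 5 UMIs of Pecam1, Cdh5 and Emcn were called endothelial (318 Fbn1 C1039G/+ and 250 wild type cells), and cells with at least 10 UMIs of C1qa, C1qb and C1qc were called macrophages (880 and 800 cells). Levels are given as CPM, the UMIs of a gene per 1000000 UMIs of the class in that library. All 7 interstitial markers were at 20 CPM or more in the interstitial class of both libraries, all 6 endothelial markers in the endothelial class and all 7 macrophage markers in the macrophage class. In interstitial cells the macrophage markers summed to 329 CPM in Fbn1 C1039G/+ and 372 CPM in wild type, with 0 of 7 at 0, the endothelial markers to 93.9 and 51.5 CPM, with 0 of 6 at 0, and the erythrocyte markers to 433 and 956 CPM, with 0 of 3 at 0, and their part in the levels was not tested. The 564 Fbn1 C1039G/+ and 775 wild type cells that met no class rule, and the 10 and 13 that met both the endothelial and the macrophage rule, are not described. The libraries shared 17 cell barcodes. In the cells just inside the interstitial limit, with 1 to 2% of UMIs from the class genes, Fbn1 stood at 359 CPM in Fbn1 C1039G/+ and 324 CPM in wild type cells. In those just outside, with 0.5 to 1%, it stood at 234 and 220 CPM. The libraries differed more there for Mfap4 and Fbn2. Mfap4 was at 431 CPM in Fbn1 C1039G/+ and 748 CPM in wild type cells just inside, and at 143 and 317 CPM just outside. Fbn2 was at 22.2 and 15.3 CPM just inside and at 37.4 and 14.1 CPM just outside. Mfap2 was at 315 and 322 CPM just inside and at 251 and 219 CPM just outside. For Mfap5 the levels were 284 and 272 CPM just inside and 99.7 and 149 CPM just outside.

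In interstitial cells all 5 genes were detected in both libraries, and none of them differed by 1.5-fold. Mfap4 had the lowest ratio of Fbn1 C1039G/+ over wild type cells and Fbn2 the highest, while Mfap2 stood at the same level in both libraries. A gene was called when it lay 1.5-fold or more above or below the other library and the interval excluded 1. Of the 6563 genes with at least 20 CPM in either library and 50 UMIs in all, 155 were called, or 2.36% (62 higher, 0.945%, and 93 lower, 1.42%). Of the members, 0 of 5 were called. The median log2 ratio, taken with 1 CPM added to each level, was 0.01 over the members and 0.03 over all 6563 genes.

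Fbn1 stood at 447 CPM in Fbn1 C1039G/+ interstitial cells and 413 CPM in wild type cells, a ratio of 1.08 (1.07 to 1.10). Counts of Fbn1 were found in 7039 of the Fbn1 C1039G/+ and 6801 of the wild type cells, at median depths of 10094.5 and 10086.0 UMIs per cell, and in 66.9% and 61.8% of cells thinned to 3000 UMIs. Of the genes measured, 62.6% had a smaller log2 ratio in size.

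Fbn2 was the rarer fibrillin, at 43.7 CPM in Fbn1 C1039G/+ and 32.7 CPM in wild type cells. Its ratio was 1.34 (1.27 to 1.41), above that of 97.9% of genes. A UMI of Fbn2 was found in 25.1% and 20.9% of cells. Fbn2 made up 8.90% (8.63 to 9.18%) of the fibrillin UMIs in Fbn1 C1039G/+ cells and 7.33% (7.07 to 7.60%) in wild type cells, so that the share of fibrillin-2 transcripts was higher in the Fbn1 C1039G/+ library by more than the counting error.

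Mfap2 stood at 357 CPM in Fbn1 C1039G/+ and 356 CPM in wild type cells, with a ratio of 1.00 (0.988 to 1.02). Mfap5 stood at 515 CPM in Fbn1 C1039G/+ and 574 CPM in wild type cells, with a ratio of 0.898 (0.887 to 0.910). Of the UMIs of both MAGP genes, Mfap5 held 59.0% in Fbn1 C1039G/+ and 61.7% in wild type cells. Mfap2 was spread over more cells than Mfap5, with a UMI in 86.2% of Fbn1 C1039G/+ and 88.8% of wild type cells, against 67.7% and 68.6% for Mfap5.

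Mfap4 gave the most UMIs of the 5 genes, at 1003 CPM in Fbn1 C1039G/+ and 1350 CPM in wild type cells. Its ratio was 0.743 (0.736 to 0.749), and 2.35% of genes had a lower one. A UMI of Mfap4 was found in 82.0% of the Fbn1 C1039G/+ and 89.0% of the wild type cells. With every cell thinned to 3000 UMIs, which left out 292 Fbn1 C1039G/+ and 40 wild type cells, the shares were 66.6% and 76.0%. The intervals of these shares did not overlap, but they take cells as the unit and do not cover differences between mice. The lower level in the Fbn1 C1039G/+ library was thus seen both in the summed UMIs and in the share of cells.

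**Figure D1:**
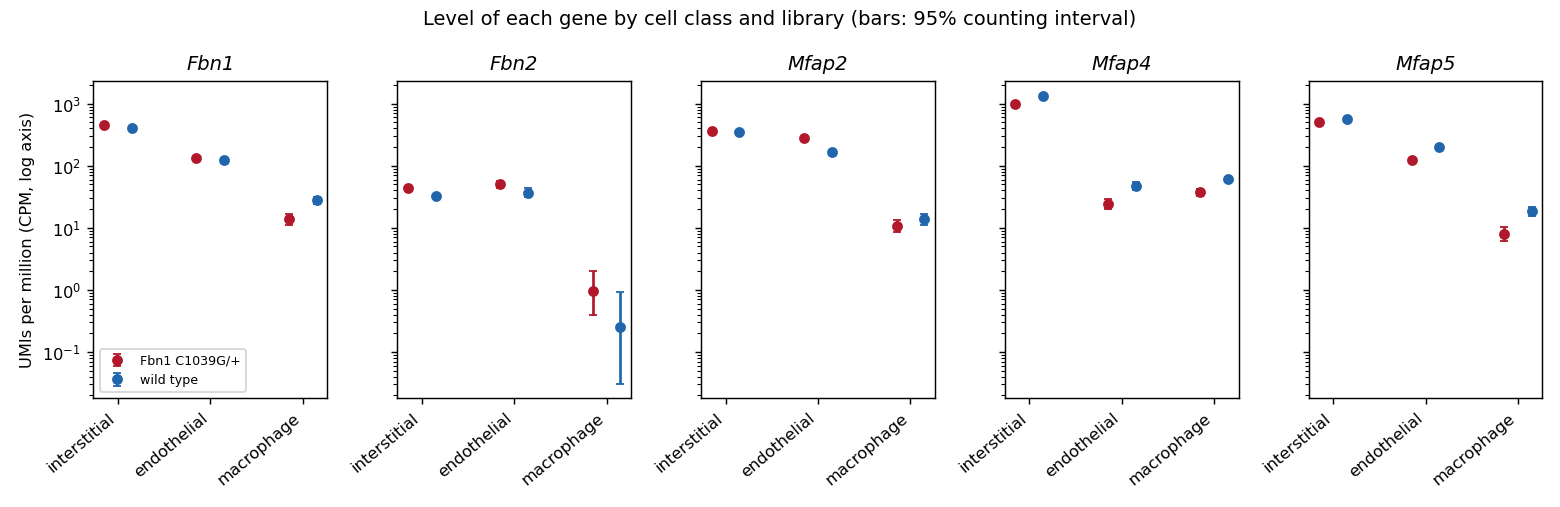
Level of each gene in CPM (log axis) by cell class, with 1 point per library and 95% counting intervals as bars. Mfap4 lies at 1003 CPM in Fbn1 C1039G/+ and 1350 CPM in wild type interstitial cells, Mfap2 is higher in the Fbn1 C1039G/+ than in the wild type endothelial class (281 and 168 CPM), and all 5 genes are lowest or near their lowest in macrophages.

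The mean level hides how differently the genes were spread over interstitial cells. In cells thinned to 3000 UMIs, the variance of Mfap4 was 5.42 times its mean in Fbn1 C1039G/+ cells and 5.04 times in wild type cells. For Mfap5 it was 3.47 and 3.39 times. For Fbn1 it was 1.45 and 1.49 times, for Fbn2 1.34 and 1.27 times, and for Mfap2 1.504 and 1.461 times, where counting alone gives 1. This measure rises with the mean, which for Fbn2 was only 0.122 and 0.0960 UMIs per cell. The variance beyond counting, taken over the squared mean, was 2.80 in Fbn1 C1039G/+ and 2.84 in wild type cells for Fbn2, 1.57 and 1.41 for Mfap5, 1.42 and 0.989 for Mfap4, 0.466 and 0.421 for Mfap2, and 0.344 and 0.412 for Fbn1. By this measure, added after the data were seen, Fbn1 and Mfap2 were the most evenly spread of the 5 genes, and Fbn2 the least.

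Cells without a UMI set Mfap4 and Mfap5 apart from Fbn1. After thinning, 33.4% of Fbn1 C1039G/+ and 24.0% of wild type cells had no Mfap4 UMI, where a Poisson distribution with the same mean would leave 4.41% and 1.67%. For Mfap5, 48.6% and 46.9% of cells had none, against 20.7% and 18.4% for a Poisson distribution. For Fbn1 these shares lay nearer to each other, at 33.1% of Fbn1 C1039G/+ and 38.2% of wild type cells, against 27.1% and 30.8%. At the other end, 8.21% of Fbn1 C1039G/+ and 11.9% of wild type cells held 10 or more Mfap4 UMIs of 3000.

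**Figure D2:**
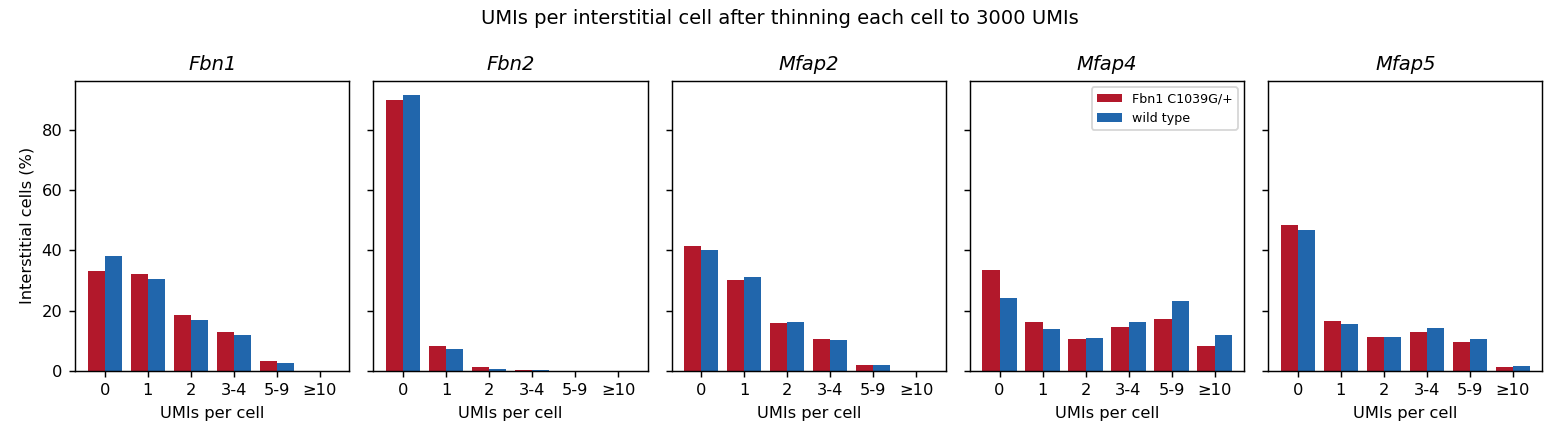
Share of interstitial cells (percent) by number of UMIs of each gene, after thinning every cell to 3000 UMIs, for 7476 Fbn1 C1039G/+ and 7517 wild type cells. Mfap4 and Mfap5 have both many cells without a UMI and a long upper tail, and 33.4% of Fbn1 C1039G/+ against 24.0% of wild type cells have no Mfap4 UMI.

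Interstitial cells of both libraries were grouped into 10 clusters with the 5 genes left out, and clusters 0 to 6 had at least 100 cells in each library. Cluster 6 was led by the immune cell genes Cd52, Fcer1g and Lyz2, with C1qa and C1qb after them. The smaller clusters 7, 8 and 9, led by endothelial, cell cycle and melanocyte genes, are not compared. The clusters are given by number and leading genes, and the levels describe them without a test. Cluster 0 (Chad, Cilp2, Chrdl1) had the highest Mfap5 level, at 1004 CPM in Fbn1 C1039G/+ and 1113 CPM in wild type cells. Cluster 4 (Cpz, Msc, Igfbp3) had the lowest, at 171 and 78.0 CPM. Mfap5 thus varied more between clusters of 1 library than between the libraries as a whole, by 5.88-fold in Fbn1 C1039G/+ and 14.3-fold in wild type cells.

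Fbn1 was highest in cluster 4, at 765 CPM in Fbn1 C1039G/+ and 608 CPM in wild type cells. It was lowest in cluster 1 (Sez6l, Mal, Myoc), at 230 and 215 CPM. Fbn2 was also lowest in cluster 1, at 11.7 and 8.94 CPM, and highest in cluster 0, at 55.6 and 50.0 CPM. Mfap2 went the other way and was highest in cluster 1, at 460 and 430 CPM, but varied least of the 5 genes, by 1.65-fold in Fbn1 C1039G/+ and 2.14-fold in wild type cells.

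Mfap4 was lowest in cluster 3 (Id4, Prss35, Egr3), at 347 CPM in Fbn1 C1039G/+ and 538 CPM in wild type cells, and stood at 1403 and 1764 CPM in cluster 2 (Scn7a, Car3, Tcf21). Cluster 3 held 1119 Fbn1 C1039G/+ and 399 wild type cells, and cluster 5, led by the interferon-induced genes Ifi44, Rsad2 and Isg15, held 502 and 179. Since clusters with different levels held different shares of the libraries, the ratios were also formed with the same cluster shares in both. The ratio of Mfap4 was then 0.795, that of Mfap5 0.896, that of Fbn1 1.04, that of Fbn2 1.27 and that of Mfap2 1.01. With the genes past 1.5-fold left out of the clustering Fbn1 stood at 422.7 CPM in Fbn1 C1039G/+ and 422.5 CPM in wild type cells, so that no direction was left, and at a Leiden resolution of 1 its ratio was 1.02. The ratios of Fbn2, Mfap4 and Mfap5 kept their direction in both alternatives.

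The ratio of the libraries was not the same in every cluster. Mfap4 was lower in Fbn1 C1039G/+ cells in clusters 0, 1, 2 and 3, with ratios of 0.654, 0.828, 0.796 and 0.645. In cluster 4 it was higher, at 1312 CPM in Fbn1 C1039G/+ and 1112 CPM in wild type cells (ratio 1.18), and in cluster 5 the ratio was 1.12. Mfap5 had a ratio of 2.19 (1.95 to 2.47) in cluster 4 and of 0.481 (0.453 to 0.511) in cluster 5, where it stood at 408 CPM in Fbn1 C1039G/+ and 848 CPM in wild type cells. Fbn2 was above 1 in all 7 clusters, with ratios of 1.11 to 2.02, and its interval excluded 1 in 6 of them. The ratio of 2.02 was that of cluster 6, where median depths were 6601.5 UMIs in Fbn1 C1039G/+ and 19354.5 UMIs in wild type cells. Whether these ratios differ between clusters was not tested.

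**Figure D3:**
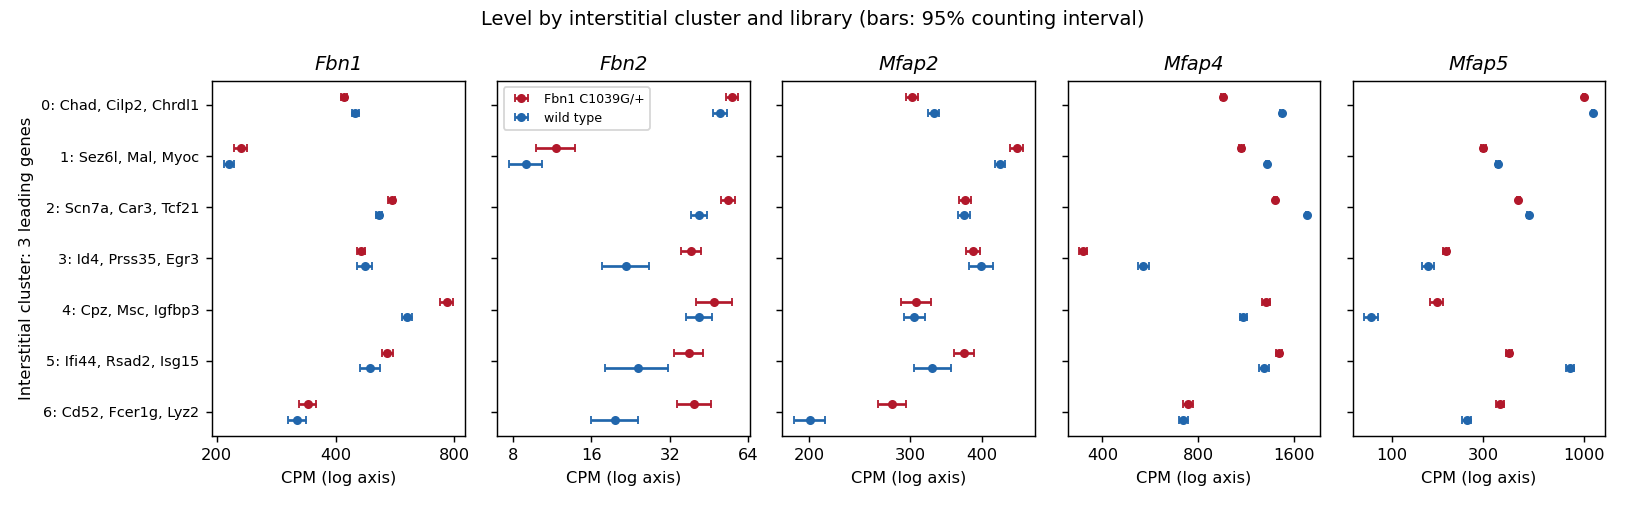
Level of each gene (CPM, log axis, each panel with its own range) in interstitial clusters 0 to 6, with the Fbn1 C1039G/+ point above the wild type point and 95% counting intervals as bars. Mfap5 ranges from 171 to 1004 CPM over clusters of the Fbn1 C1039G/+ library and from 78.0 to 1113 CPM over those of the wild type library, while Mfap2 ranges only from 279 to 460 CPM and from 201 to 430 CPM.

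The cells of each library could be split by sex, by a Xist UMI without a UMI of 4 Y-linked genes (female) or a Y-linked UMI without Xist (male). Female cells were 48.0% of the Fbn1 C1039G/+ and 46.3% of the wild type interstitial cells, and male cells 37.6% and 41.4%. Mfap4 stood at 798 CPM in female Fbn1 C1039G/+ cells and 1331 CPM in female wild type cells, a ratio of 0.600 (0.591 to 0.608), which is past 1.5-fold. In male cells it stood at 1206 CPM in Fbn1 C1039G/+ and 1394 CPM in wild type, a ratio of 0.865 (0.854 to 0.877). The ratio of Mfap4 was thus farther from 1 in female than in male cells, a difference that was not tested.

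Within the Fbn1 C1039G/+ library, Mfap4 in female cells was 0.662 (0.652 to 0.672) of that in male cells, and lay below it in each of clusters 0 to 6, with ratios of 0.457 to 0.903. In the wild type library the ratio of female over male cells was 0.955 (0.943 to 0.967). Mfap2 was also lower in female cells of the Fbn1 C1039G/+ library, at 312 CPM against 397 CPM in male cells (0.785), and at 343 CPM against 372 CPM in the wild type library (0.922). Cluster 5 held 87 female and 330 male cells of the Fbn1 C1039G/+ library, and 16 and 139 of the wild type library. Mfap5 stood there at 617 CPM in female and 337 CPM in male Fbn1 C1039G/+ cells, and at 702 and 890 CPM in wild type cells. As the Fbn1 C1039G/+ pool held 3 mice and cells of both sexes, 1 sex in it comes from 1 mouse, and sex and mouse cannot be told apart.

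Over 7476 Fbn1 C1039G/+ and 7517 wild type interstitial cells thinned to 3000 UMIs, the Pearson r of the log counts reached at most 0.11 between Fbn1 and Mfap4 in Fbn1 C1039G/+ cells, and 0.16 between Mfap4 and Mfap5 in wild type cells. For Fbn1 and Fbn2 it was 0.076 and 0.083. For Mfap2 and Mfap5, the MAGP pair, it was -0.066 and -0.040. Within clusters of at least 200 cells, the r of Mfap4 and Mfap5 ran between -0.006 and 0.301 over 7 clusters of the Fbn1 C1039G/+ library and between -0.028 and 0.312 over 6 of the wild type library. For scale, the 99th percentile of r over 6459 genes was 0.098 in Fbn1 C1039G/+ and 0.116 in wild type cells with Fbn1, and 0.052 and 0.062 with Fbn2. It was 0.054 and 0.047 with Mfap2, 0.155 and 0.125 with Mfap4, and 0.151 and 0.182 with Mfap5. In both libraries Fbn1 and Mfap4 lay above the percentile of Fbn1, and Fbn1 and Fbn2 above that of Fbn2. Mfap2 and Mfap4 (0.092 and 0.095) lay above that of Mfap2. Each of these pairs lay below the percentile of its other gene. Mfap4 and Mfap5 lay above that of Mfap4 in wild type cells only, and below that of Mfap5. The points are cells of 1 library with sparse counts, and the values over all cells are small and not read as a relation or its absence.

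The genes below have the 5 highest r with each member, ranked by the lower of the libraries' values, among 6459 genes with a UMI in at least 5% of thinned cells. The members themselves were left out of this ranking, and the values are descriptions over cells. For Fbn1 they were Col3a1 (r of 0.285 in Fbn1 C1039G/+ and 0.319 in wild type cells), Sparc, Col1a2, Col1a1 and Col8a1. Col3a1, Col1a1 and Col1a2, fibrillar collagen genes, are also genes of the class rule. For Fbn2 they were Col1a2 (0.137 and 0.155), Col1a1, Sparc, Thbs1 and Ecrg4. For both fibrillins the list thus held Col1a1, Col1a2 and Sparc, which encodes a collagen-binding matrix protein.

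Mfap4 was nearest to Serpinf1 (0.371 and 0.404), which encodes pigment epithelium-derived factor, and then to Fbln1, Bgn, Cst3 and Gsn. Mfap5 was nearest to Prelp (0.368 and 0.443), a small leucine-rich proteoglycan gene, and then to Fibin, Fmod, Comp and Thbs1. Its lowest r was with Apoe (-0.262 and -0.377), the apolipoprotein E gene, which was also the lowest for Fbn2 (-0.090 and -0.112). Apoe was instead among the highest for Mfap2 (0.115 and 0.095), with Cygb, Serpinf1, Htra3 and Crispld2, all of them weak, and Mfap4 (0.092 and 0.095) lay above Crispld2 (0.088 and 0.094). The MAGP genes thus had no gene in common among their 5 highest, and Mfap2 was highest in cluster 1 where Mfap5 was highest in cluster 0.

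In endothelial cells 3 of the 5 genes were past 1.5-fold, Mfap2 higher and Mfap4 and Mfap5 lower in the Fbn1 C1039G/+ library. Over all 7240 genes measured in this class 467 were called, or 6.45% (233 higher, 3.22%, and 234 lower, 3.23%). The class is small, and interstitial markers summed to 5832 CPM in Fbn1 C1039G/+ and 4336 CPM in wild type endothelial cells, with 0 of 7 at 0. Of 16 interstitial genes outside the class rule 15 were measured here, of which 14 lay above a log2 ratio of 0 and 3 were called higher (Col5a1, Col6a3 and Postn), with a median of 0.35 beside 0.02 over all genes. The part of these genes and markers in the members' ratios was not tested. Of the 3 interstitial genes called higher, Col5a1 and Col6a3 passed the 20 CPM filter only through the Fbn1 C1039G/+ library.

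Mfap2 stood at 281 CPM in Fbn1 C1039G/+ and 168 CPM in wild type endothelial cells, from 1371 and 636 UMIs. Its ratio was 1.67 (1.52 to 1.84), and it stayed past 1.5-fold under all 10 alternatives run, at 1.58 to 2.02. It reached 78.7% of the interstitial level in Fbn1 C1039G/+ and 47.2% in wild type cells. For comparison, 16 interstitial genes outside the class rule had a median of 6.77% and 6.57% of their interstitial level in endothelial cells. In that list Pdgfra (412% and 232%) and Postn (69.1% and 53.8%) were the highest.

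Mfap5 stood at 124 CPM in Fbn1 C1039G/+ and 202 CPM in wild type endothelial cells, a ratio of 0.610 (0.548 to 0.680). The ratio was 0.681 with the interstitial class set at 2% of UMIs and 0.720 in female cells, neither of them past 1.5-fold. Of the UMIs of both MAGP genes, Mfap5 held 30.5% (28.5 to 32.6%) in Fbn1 C1039G/+ and 54.6% (52.0 to 57.3%) in wild type endothelial cells. The balance of the MAGP genes thus differed between the libraries more in endothelial than in interstitial cells.

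Mfap4 stood at 24.4 CPM in Fbn1 C1039G/+ and 47.0 CPM in wild type endothelial cells, a ratio of 0.519 (0.408 to 0.659). This is 2.44% and 3.48% of its interstitial level, below the median of the 16 interstitial genes, and 5 cells held 41.2% and 57.9% of its UMIs. With predicted doublets removed the ratio was 0.892, with the class at 2% it was 0.929, in female cells it was 0.749, and without the 5 cells with most UMIs in each library it was 0.726, none of them past 1.5-fold. The level itself depends on the class limit, at 106 CPM in Fbn1 C1039G/+ and 114 CPM in wild type cells with the class at 2%, and 10.6 and 20.1 CPM with it at 0.5%. Under the other alternatives run the ratio stayed past 1.5-fold, from 0.410 in male cells to 0.654 with equal weight per cell. The call of Mfap4 in endothelial cells therefore depended on the setting, with few cells holding much of its UMIs.

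Fbn1 stood at 133 CPM in Fbn1 C1039G/+ and 122 CPM in wild type endothelial cells, a ratio of 1.09 (0.962 to 1.23). Fbn2 was at 49.9 CPM in Fbn1 C1039G/+ and 37.0 CPM in wild type cells, and its ratio came to 1.35 (1.09 to 1.67). Fbn2 was the 1 gene of the 5 as high in endothelial as in interstitial cells, at 114% (99.8 to 130%) of the interstitial level in Fbn1 C1039G/+ and 113% (94.8 to 134%) in wild type cells. It made up 27.3% of the fibrillin UMIs in Fbn1 C1039G/+ and 23.2% in wild type endothelial cells. The 5 cells with most Fbn2 UMIs held 39.1% and 57.1% of them, and without these cells Fbn2 was at 31.3 and 16.8 CPM (ratio 1.87, 1.37 to 2.56). These levels lay below the 43.7 and 32.7 CPM of interstitial cells, from which no cells were left out.

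Fbn2 was also unevenly spread over endothelial cells. Prox1, a transcription factor gene of lymphatic and valve endothelium chosen here after the data were seen, gave a UMI in 199 Fbn1 C1039G/+ and 126 wild type endothelial cells, with medians of 13117.0 and 14631.5 UMIs per cell. The other 119 and 124 cells had medians of 7471 and 9214. Fbn2 stood at 63.5 CPM (55.5 to 72.3) in Fbn1 C1039G/+ and 57.5 CPM (48.1 to 68.0) in wild type cells with Prox1. It stood at 11.7 CPM (6.56 to 19.3) and 4.13 CPM (1.52 to 8.99) in cells without, from 15 and 6 UMIs.

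Mfap2 followed the same order, at 334 and 220 CPM in cells with Prox1 and 134 and 84.7 CPM in cells without. Mfap5 had the opposite order, at 90.7 and 126 CPM with Prox1 and 216 and 324 CPM without. The ratio of Mfap2 was 1.52 (1.37 to 1.69) with Prox1 and 1.58 (1.24 to 2.01) without. That of Mfap5 was 0.717 (0.611 to 0.843) with Prox1, not past 1.5-fold, and 0.665 (0.571 to 0.773) without. For Mfap4 it was 0.6625 (0.496 to 0.886) with Prox1 and 0.280 (0.163 to 0.462) without, the latter from 20 and 81 UMIs. Cells with Prox1 were 199 of 318 in the Fbn1 C1039G/+ and 126 of 250 in the wild type library, and the part of this shift in the ratios over all endothelial cells was not tested. Fbn1 hardly moved with Prox1, at 130 and 126 CPM with it and 141 and 117 CPM without.

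**Figure D4:**
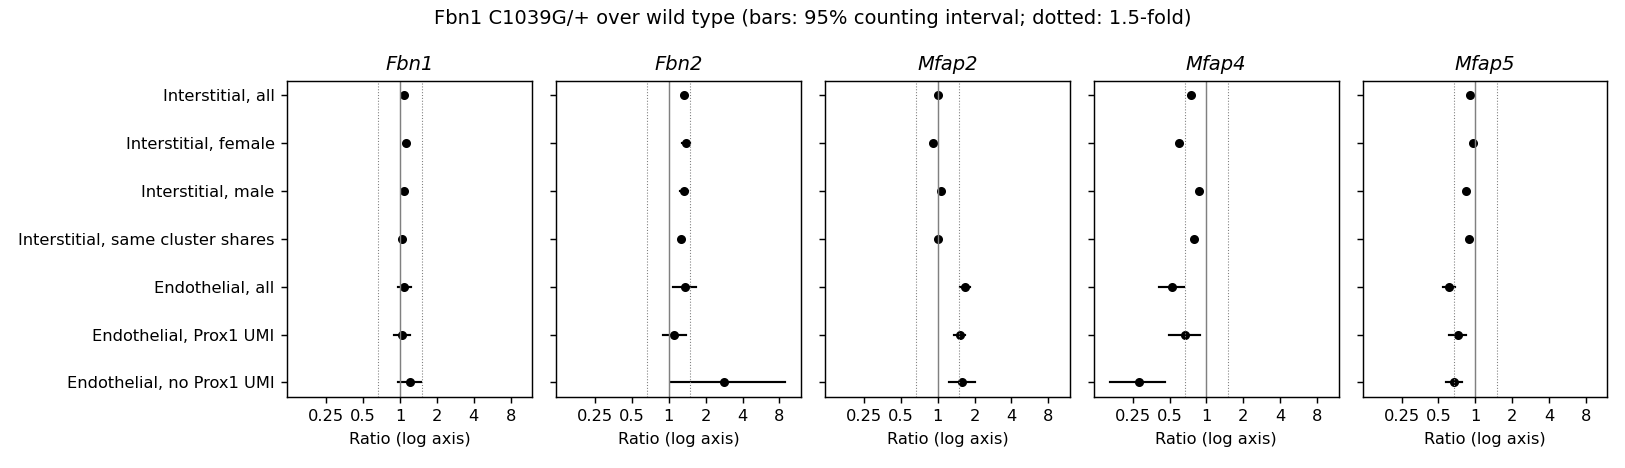
Ratio of Fbn1 C1039G/+ over wild type (log axis) for each gene in interstitial cells (all, female, male, and with the same cluster shares, which has no interval) and in endothelial cells (all, with and without a Prox1 UMI), with 95% counting intervals as bars and dotted lines at 1.5-fold. Mfap4 is below 1 in all 7 rows, Mfap2 is near 1 in interstitial cells and at 1.67 in endothelial cells, and the interval of Fbn2 in endothelial cells without Prox1 is wide, from 15 and 6 UMIs.

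In macrophages the 5 genes were low beside interstitial cells. They reached 1.55 to 3.72% of their interstitial level in the Fbn1 C1039G/+ library and 0.775 to 6.69% in the wild type library, where the 16 interstitial genes reached 1.39 to 5.91% and 2.12 to 7.68%. A UMI of Fbn1 was found in 7.50% of Fbn1 C1039G/+ and 6.88% of wild type macrophages, at median depths of 7387 and 8292.5 UMIs, and a UMI of Mfap4 in 18.1% and 26.4%. These levels are not read as expression by macrophages, and their source was not tested. Without predicted doublets Fbn1 fell from 13.6 to 8.41 CPM in Fbn1 C1039G/+ and from 27.6 to 14.0 CPM in wild type macrophages. The 2 members measured there, Fbn1 and Mfap4, were both past 1.5-fold lower in the Fbn1 C1039G/+ library, at 13.6 and 37.3 CPM against 27.6 and 61.2 CPM in wild type macrophages, and 5 cells held 43.1% of the wild type Fbn1 UMIs. Of the 12 interstitial genes measured, 6 were also past 1.5-fold lower. Fbn1, and of these 6 Col6a1, Col6a2, Col6a3 and Pcolce, reached 20 CPM only in wild type macrophages. These genes thus passed the level filter only through the library where they were higher. Of all 6080 genes measured in macrophages 5.05% were called, 1.43% higher and 3.62% lower.

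Of 33 other genes of microfibrils and elastic fibers measured in interstitial cells, in 6 lists, 3 were called, or 9.09%, beside 2.36% of all genes. Fn1 and Adamtsl3 were higher and Efemp1 lower in the Fbn1 C1039G/+ library. Adamtsl3 passed the 20 CPM filter only through the Fbn1 C1039G/+ library, where it was higher. Of 12 genes for elastin, fibulins and emilins 8 were measured, and 1 was called, Efemp1, which encodes fibulin-3, at 21.5 CPM in Fbn1 C1039G/+ and 36.1 CPM in wild type cells. Eln itself, the elastin gene, stood at 266 and 239 CPM. The list's median log2 ratio was 0.13. All 4 latent TGF-beta binding protein genes were measured and 0 were called, with a median of 0.16, and Ltbp1 was the farthest from 1 at 106 and 72.9 CPM. Of 5 lysyl oxidase genes, which encode the enzymes that crosslink elastin and collagen, 4 were measured and 0 called, with a median of -0.02.

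Of 10 ADAMTS and ADAMTS-like genes, several of which encode proteins that bind fibrillin-1, 5 were measured and 1 was called, Adamtsl3, at 34.5 CPM in Fbn1 C1039G/+ and 18.9 CPM in wild type cells, with a list median of 0.26. Of 9 genes for fibrillin processing and matrix ligands 8 were measured and 1 was called, Fn1, the fibronectin gene, at 219 and 88.0 CPM, with a list median of 0.11. Dcn, among these 8 and so among the 33 genes above, is also a gene of the class rule, on which its level depends. It was not called. Of 6 integrin genes whose products can bind fibrillin 4 were measured and 0 called, with a median of 0.22.

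In endothelial cells 8 genes of the elastin list were measured, 4 latent TGF-beta binding protein genes, 1 lysyl oxidase gene, 4 ADAMTS and ADAMTS-like genes, 8 processing and ligand genes and 3 integrin genes. Of these 28 genes 6 were called, or 21.4%, beside 6.45% of all genes. They were Fbln2, the fibulin-2 gene, at 93.2 CPM in Fbn1 C1039G/+ and 42.0 CPM in wild type cells, Ltbp1 at 586 and 379 CPM, Loxl2 at 42.7 and 26.2 CPM and Fn1 at 2720 and 1612 CPM, all higher. Fbln5, the fibulin-5 gene, at 18.7 and 33.3 CPM, and Adamtsl1 at 9.85 and 38.6 CPM were lower. Fbln5 and Adamtsl1 passed the 20 CPM filter only through the wild type library, where they were higher. Ltbp1 was higher in endothelial than in interstitial cells of both libraries, and Fbln5, at 478 and 396 CPM in interstitial cells, was lower there. Dcn, a gene of the class rule, was among the 28 genes and was not called.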

How the data were processed

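Single-cell RNA was captured from digested mitral valves with the 10x Chromium Single Cell 3′ kit, version 3.1, per the labels' protocols. The deposited files hold UMI counts for each gene and barcode without normalisation. Cell Ranger 3.1.0 and mm10 are given per the submitters' processing notes, and Cell Ranger 5.0.1 per the file headers, and which version was run is not settled. Which barcodes hold cells was decided by the authors, and free RNA was not subtracted.

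Counts were summed per library and class and scaled to CPM. Levels have exact Poisson, ratios exact conditional binomial and shares exact Clopper-Pearson 95% intervals. Ratios are Fbn1 C1039G/+ over wild type. The classes, the 5 members and the gene lists were chosen with earlier results of these data known. Genes named beside the members are the 5 highest and 2 lowest by r with each member in both libraries, of which the text gives some, and list genes by size of the log2 ratio. Eln, Adamtsl1, the Prox1 split and the other list genes called were named after their values were seen.

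Interstitial cells were clustered without the members, sex-linked and mitochondrial genes (scanpy 1.11.5, 2000 variable genes, 30 components, 15 neighbours, leidenalg 0.10.2 at resolution 0.5). Barcodes were not removed as doublets in the main values. As an alternative, the highest Scrublet scores were removed at 0.8% per 1000 barcodes (752 and 732 barcodes), because the automatic threshold called 0. Coordinates are from GENCODE M21, which matched 32235 of 32285 identifiers. The calculations were tested on simulated data.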

Additional observations from a re-analysis of the deposited data

Results flagged for a closer look

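Between interstitial clusters, 4 of the 5 genes had ratios of Fbn1 C1039G/+ over wild type cells on both sides of 1, each with an interval that excluded 1. The differences between clusters were not tested, and with 1 library per genotype they could not be. Mfap5 had a ratio of 2.19 in cluster 4 (Cpz, Msc, Igfbp3) and of 0.481 in cluster 5 (Ifi44, Rsad2, Isg15), which held mostly male cells in both libraries. Mfap4 had a ratio of 1.18 in cluster 4 and of 0.645 in cluster 3 (Id4, Prss35, Egr3). Mfap2 had a ratio of 1.39 in cluster 6 and of 0.918 in cluster 0, and cluster 6 was led by macrophage genes, whose markers summed to 5734 CPM there. Median depths in cluster 6 were 6601.5 UMIs in Fbn1 C1039G/+ and 19354.5 UMIs in wild type cells. Fbn1 had a ratio of 1.26 in cluster 4 and of 0.936 in cluster 0.

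Mfap2 moved in opposite directions in the sexes, with a ratio of 0.909 in female and of 1.07 in male interstitial cells, while its ratio over all interstitial cells was 1.00. This difference was not tested either.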

How the results depend on the processing

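The ratios of Fbn1, Fbn2, Mfap4 and Mfap5 in interstitial cells kept their direction under all 11 alternatives, while Mfap2 lay above 1 in 6 of them. Of these ratios, a value is given below where it left the counting interval of the main value. With the class at 2% of UMIs the ratio was 1.06 for Fbn1, 0.734 for Mfap4 and 0.851 for Mfap5. Without predicted doublets it was 0.736 for Mfap4 and 0.878 for Mfap5. With equal weight per cell it was 1.105 for Fbn1, 0.760 for Mfap4 and 0.917 for Mfap5. With a total without mitochondrial, ribosomal and class genes Mfap4 was at 0.734. In thinned cells it was 1.108 for Fbn1, 0.987 for Mfap2, 0.763 for Mfap4 and 0.930 for Mfap5. In female cells it was 1.116 for Fbn1, 0.909 for Mfap2, 0.600 for Mfap4, the 1 call gained, and 0.951 for Mfap5, and in male cells 1.068 for Mfap2, 0.865 for Mfap4 and 0.834 for Mfap5. Without clusters 6, 7 and 9 Mfap5 was at 0.887. With equal cluster shares it was 1.041 for Fbn1, 1.267 for Fbn2 and 0.795 for Mfap4. In endothelial cells Fbn2 was at 1.044 with the class at 0.5%, 1.88 with equal weight per cell, 2.38 in male cells and 1.87 without its 5 highest cells in each library. Mfap2 was at 2.02 without its 5 highest cells. Mfap4 was at 0.929 with the class at 2%, 0.892 without doublets, 0.749 in female cells and 0.726 without its 5 highest cells. Mfap5 was at 0.681 with the class at 2%, 0.541 in thinned cells and 0.720 in female cells. The number of interstitial genes past 1.5-fold was 1430 of 19764 with no level filter and 50 of 1709 at 100 CPM, against 155 of 6563. The cause of these and the other shifts was not tested. Of the cluster-standardised ratios 6 of 10 moved, among them Fbn1 to 422.7 and 422.5 CPM with genes past 1.5-fold left out of the clustering. Levels in endothelial cells moved past their intervals in 10 of 30 cases, Mfap4 most, to 106 and 114 CPM with the class at 2% and 10.6 and 20.1 CPM at 0.5%. Levels in macrophages did so in 26 of 30, and 39 of 40 values of r stayed within 0.05. The r that moved was that of Mfap4 and Mfap5 in wild type cells, from 0.155 to 0.094 with the class at 2%. In Fbn1 C1039G/+ cells it went from 0.085 to 0.036. The alternatives in endothelial cells, the clusters left out and the highest cells were added after the data were seen. No paired analysis was possible because each group has 1 library, so that only 1 replicate number is shared, and for the same reason no replicate could be left out. Intervals do not cover variation between mice or preparations.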
